A study of Sus scrofa with 31 samples.

Results

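Whole blood of Clawn miniature pigs at 30 weeks of age was compared with whole blood of the same breed at 20 weeks of age. The members were chosen by their labels alone and are 15 of the 31 arrays of the series, 8 at 20 weeks (4 males and 4 females) and 7 at 30 weeks (3 males and 4 females). All pigs were specific pathogen-free and were caged singly at the breeder's facility. Blood was drawn from the superior vena cava into PAXgene tubes, which stabilise RNA at sampling, and each RNA, labelled with Cyanine 3, went onto 1 Agilent porcine array of its own, without pooling. The array carries 43603 probes. By the study's methods a single cohort of both sexes was housed through both ages and bled repeatedly, so that animals recur between the ages. The sources do not match single arrays to single animals. The tests took the arrays as independent, which such repeats break, and their p-values measure the spread between these samples. The array called 30-week female 1 carries the entry male for gender and was kept as female. The probe for UTY, the only gene of a sex-chromosome list with a probe on this array, was below background on all 7 male and all 8 female arrays, so that the sexes could not be checked against the data.

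Whole blood RNA is a mixture of the transcripts of neutrophils, lymphocytes, monocytes, platelets and immature red cells, and a change in a transcript can come from a change in the cells present or in what each cell transcribes. In bulk blood, fewer cells of a type and less RNA per cell cannot be told apart. Among the best known programmes of blood leukocytes is the interferon response, in which type I or type II interferon acts on a common set of antiviral genes, antigen-presentation genes and chemokines. Miniature pigs reach sexual maturity at about the ages compared here.

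The 30-week arrays did not form 1 group. All 8 arrays of 20 weeks and 3 of the 30-week arrays (males 2 and 3 and female 4) were scanned on 1 day, and the other 4 arrays of 30 weeks (male 1 and females 1, 2 and 3), which share a slide, were scanned on another. On the first principal component, which held 40.3% of the variance over the tested probes, the 20-week arrays lay between -38.4 and -9.58, the 30-week arrays of the same scan day between -63.1 and -6.45, and the 30-week arrays of the second scan day between 19.8 and 108. The mean correlation of an array with the 20-week arrays was 0.973 to 0.982 at 20 weeks, 0.957 to 0.973 for the 30-week arrays of the shared day and 0.917 to 0.947 for those of the second day. The slope of the spike-in controls, RNA added in known amounts, was 1.02 to 1.06, 1.03 to 1.04 and 0.889 to 0.919 in the same order. The number of present probes, those positive, significant and well above background by the scanner flags, overlapped among the 3 sets of arrays: 18702 to 21794, 17361 to 20624 and 18076 to 21892. Since all arrays of the second scan day are of 30 weeks and every slide holds 1 age only, changes are given below over all 15 arrays and, for the genes described, over the 11 arrays of the shared scan day. The latter are part of the former, so that a call in both is not a call in independent samples.

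**Figure D1:**
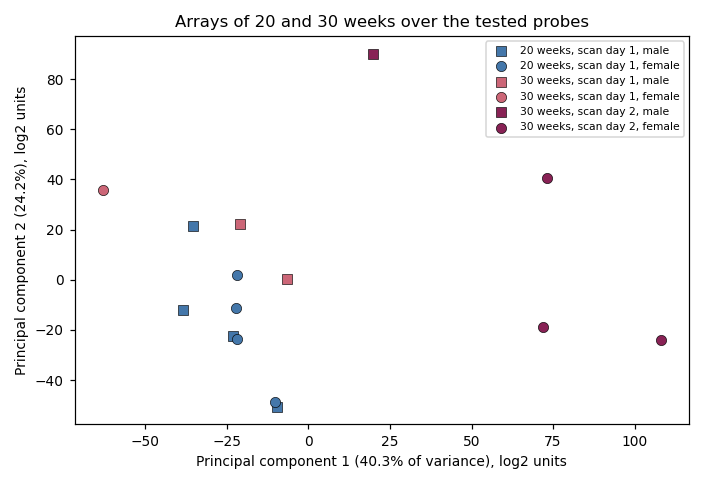
First and second principal component of log2 signal over the tested probes, 1 mark per array (squares, males; circles, females), with 40.3% and 24.2% of the variance. The 4 arrays of 30 weeks from the second scan day lie at 19.8 or more on the horizontal axis, and the other 11 arrays at -6.45 or less.

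Over the 15 arrays, 3200 of the 18488 tested probes (17.3%) differed between 30 and 20 weeks at an adjusted p under 0.05 (limma, Benjamini-Hochberg), 1214 of them higher (6.57%) and 1986 lower (10.7%) at 30 weeks. Tested probes were those present on over 75% of the samples of either age, and the median log2 difference over all tested probes was -0.01. A probe expressed only at the age where it is higher passed through that age alone, so that its difference is partly set by this filter. On the shared scan day, with 3 arrays of 30 weeks, 594 probes (3.21%) were called, 420 higher (2.27%) and 174 lower (0.941%), with a median log2 difference of -0.06. Scaling each array to its 75th percentile in place of quantile normalization gave 486 higher and 97 lower on that day. Of the probes called over 15 arrays, 198 that rose (1.07% of the tested probes) and 106 that fell (0.573%) were also called in the same direction on the shared day, and none in the opposite direction. More probes were called between the scan days than between the ages. Among the 30-week arrays, 5673 probes (30.7%) differed between the second and the first day, 3083 higher (16.7%) and 2590 lower (14%). With the slide as a random block, 6 probes were called over 15 arrays, 4 higher and 2 lower (2942 at an unadjusted p under 0.05). The count of calls also rested on single arrays. Without 30-week female 1 it was 1719 over 15 arrays, without 20-week male 4 it was 2123, and without 30-week female 4 it was 5392. On the shared day the count fell to 43 without 30-week male 2, to 114 without 30-week male 3 and to 187 without 20-week male 3, lay between 338 and 394 without 30-week female 4, 20-week males 2 and 4 or 20-week females 2 and 4, and rose to 1378 without 20-week male 1. How precise any value can be is limited by how many arrays there were.

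By name or description, 13 genes were higher and 13 lower at 30 weeks in both comparisons. Those that were higher included a receptor, a chemokine and an enzyme of fatty acid metabolism. ADORA2A encodes the adenosine A2A receptor, through which adenosine damps the activity of leukocytes. Its probe, printed in lower case from the array files and not placed on a genome here, is shown because, among rises of probes with a gene name, its adjusted p over 15 arrays was the smallest.
ADORA2A probe, 5′ to 3′: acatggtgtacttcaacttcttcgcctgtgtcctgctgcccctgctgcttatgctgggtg
The log2 signal of ADORA2A ran from 10.46 through a median of 10.79 to 11.36 at 20 weeks and from 11.39 through 11.97 to 12.61 at 30 weeks. The ages did not overlap, and the 30-week arrays of both scan days had like means, 12.12 on the first and 12.02 on the second. The difference was 1.24 ± 0.19 (log2, SE; 2.37-fold, limma adjusted p = 0.00139) over 15 arrays and 1.30 ± 0.20 (adjusted p = 0.0083) on the shared day, and it stayed called in both whichever single array was left out. With the slide as a random block its adjusted p was 0.0851.

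CCL3L1 encodes a chemokine that attracts monocytes and T cells. Its log2 signal had a lowest, median and highest value of 6.25, 6.65 and 6.90 at 20 weeks and of 6.87, 7.66 and 8.28 at 30 weeks. The ages overlapped at their edges over 15 arrays and did not on the shared day. It rose by 0.93 ± 0.19 (adjusted p = 0.00654) over 15 arrays and by 1.28 ± 0.18 (adjusted p = 0.0047) on the shared day, with the call kept without any single array in both. FADS1, a desaturase in the synthesis of long-chain polyunsaturated fatty acids, ran from 11.86 through 12.16 to 12.71 at 20 weeks and from 12.74 through 12.98 to 13.16 at 30 weeks. Its groups did not overlap either, with a rise of 0.72 ± 0.13 (adjusted p = 0.00419) over 15 arrays and of 0.76 ± 0.18 (adjusted p = 0.0354) on the shared day, the latter lost without 30-week male 2 (adjusted p = 0.175) and in all without 7 of the 11 arrays. These genes, and those that follow as called in both comparisons, were singled out after their values were seen.

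Most other probes of this kind carry no pig gene name and are known by the protein their sequence resembles. The probe described as similar to human ORF1 had the smallest adjusted p of the named or described rises. Its lowest, median and highest log2 signals were 10.06, 10.50 and 11.12 at 20 weeks and 11.54, 12.06 and 12.29 at 30 weeks. The groups did not overlap and differed by 1.42 ± 0.15 (2.68-fold, adjusted p = 0.000187) over 15 arrays and 1.15 ± 0.18 (adjusted p = 0.0083) on the shared day, and this probe was also called with the slide as a random block (adjusted p = 0.0305). Without 30-week male 2 its adjusted p on the shared day was 0.0578. A probe similar to 3-hydroxyisobutyryl-CoA hydrolase, an enzyme of valine breakdown, went from 10.44, 10.84 and 11.32 to 11.56, 12.22 and 12.48, a rise of 1.27 ± 0.17 (adjusted p = 0.000924) and of 0.89 ± 0.18 on the shared day (adjusted p = 0.0235, and 0.111 without 30-week male 2). Others of this set were similar to the olfactory receptor Olfr644, to RGS22, to a variant of ZBED3 and to a pig MHC class I antigen, with calls on the shared day that were lost without 30-week male 2 for each. The last, at 7.43, 7.78 and 8.54 against 7.54, 8.72 and 9.83, rose by 0.96 ± 0.29 over 15 arrays (adjusted p = 0.0313), with overlapping groups, and its call was lost when any of 8 of the 15 arrays was left out (adjusted p up to 0.0649, without 30-week male 1). It rose by 1.22 ± 0.26 on the shared day (adjusted p = 0.0286, and 0.133 without 30-week male 2). Class I genes are near-identical copies of each other, so that which locus this probe measured is uncertain.

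**Figure D2:**
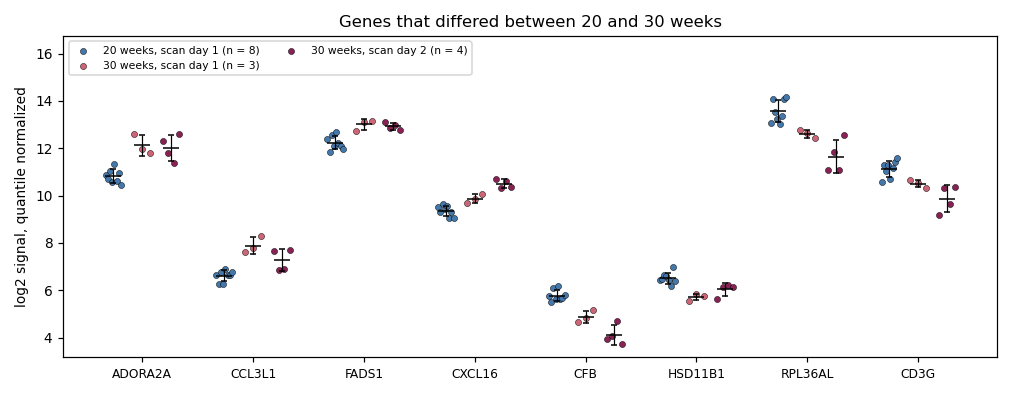
Log2 normalized signal of 8 genes on each of the 15 arrays, at 20 weeks, at 30 weeks on the shared scan day and at 30 weeks on the second scan day; black marks are mean ± SD. ADORA2A and FADS1 lie above the 20-week arrays on both scan days, and CFB lies below them on both.

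Genes that fell in both comparisons included MX1, described below, and CFB, complement factor B, a protease of the alternative complement pathway. The log2 signal of CFB was 5.51, 5.72 and 6.17 (lowest, median and highest) at 20 weeks and 3.71, 4.66 and 5.17 at 30 weeks. The groups did not overlap, and CFB was lower by 1.34 ± 0.21 (2.52-fold, adjusted p = 0.00195) over 15 arrays and by 0.90 ± 0.19 (adjusted p = 0.0265) on the shared day. Without 30-week male 2 the latter had an adjusted p of 0.13, and with all 15 arrays no left-out array ended the call. HSD11B1, the enzyme that regenerates active glucocorticoid inside cells, went from 6.18, 6.45 and 6.98 to 5.56, 5.85 and 6.21. Its groups overlapped at their edges over 15 arrays, and it fell by 0.61 ± 0.15 (adjusted p = 0.0116) and, on the shared day, by 0.80 ± 0.17 (adjusted p = 0.0265, and 0.107 without 30-week male 2).

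Other probes that fell in both comparisons are known by description, and those named here were picked after their values were seen. The probe similar to RPL37, a protein of the large ribosomal subunit, was at 15.29, 15.55 and 16.01 at 20 weeks and at 12.71, 14.78 and 15.05 at 30 weeks. All 30-week arrays were below all 20-week arrays, by 1.27 ± 0.31 on average (adjusted p = 0.0138), and by 0.67 on the shared day (adjusted p = 0.0419). Probes similar to RPL26L1 (-0.99 and -0.67), to a variant of RPL39 (-0.89 and -0.75) and to RBM8A, a core protein of the exon junction complex (-0.73 and -0.67), were also lower over 15 arrays and on the shared day. Ribosomal protein genes have many near-identical processed copies, so that these probes may read more than 1 locus. Smaller falls were called in both comparisons for probes similar to the zinc finger protein ZNF292 (-0.55 and -0.62) and to GMFG, a regulator of actin branching in leukocytes (-0.49 and -0.61). On the shared day, the calls of all probes of this paragraph were lost without 30-week male 2.

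Of 19 tested genes stimulated by interferon, 8 fell and 0 rose over 15 arrays, where 10.7% of all tested probes fell, and the median log2 difference was -0.75 against -0.01 over all tested probes. On the shared day 3 fell and 0 rose, where 0.941% of all tested probes fell, with a median of -0.69 against -0.06. Between the second and the first scan day of the 30-week arrays the median of the list was 0.24, with 2 genes higher and 1 lower. The 2 genes with positive values were the same in both comparisons, OAS1, which makes an activator of RNase L, at 0.22 and the transcription factor IRF7 at 0.40 over 15 arrays, and neither passed the test.

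MX1, a GTPase that blocks the replication of influenza and other viruses, had the largest value of the list on the shared day. Its log2 signal was 12.51 to 13.93 with a median of 13.33 at 20 weeks, and 11.50, 11.47 and 10.69 on the 3 arrays of 30 weeks of that day. Those 3 lay below every 20-week array, by 2.01 ± 0.31 on average (4.03-fold, adjusted p = 0.00868), and the call held without any single array. Over 15 arrays the highest 30-week value was 13.79, inside the 20-week range, and the fall was 1.32 ± 0.43 (adjusted p = 0.0439), a call lost without any of 10 of the 15 arrays (adjusted p up to 0.0865, without 30-week female 2). RSAD2, the antiviral enzyme viperin, had a lowest, median and highest value of 6.75, 7.80 and 8.67 at 20 weeks and of 5.02, 6.29 and 8.56 at 30 weeks. Its ages overlapped over 15 arrays (-1.01, adjusted p = 0.146), while on the shared day it fell by 1.93 ± 0.41 (adjusted p = 0.0266, and 0.109 without 30-week male 2). MX2, a relative of MX1, was also called on the shared day, lower by 1.18 ± 0.29 (adjusted p = 0.0458, and 0.132 without 30-week female 4), against -0.84 over 15 arrays (adjusted p = 0.162).

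Other interferon genes were called over 15 arrays and not on the shared day, where the direction of their values was the same. SAMD9, an antiviral restriction factor, had a lowest, median and highest log2 signal of 10.30, 10.89 and 11.62 at 20 weeks and of 8.75, 9.74 and 10.51 at 30 weeks. Its groups overlapped at their edges, with a fall of 1.25 ± 0.25 (adjusted p = 0.00567) and, on the shared day, a difference of -0.85 (adjusted p = 0.0846). CXCL10, the chemokine that interferon gamma induces to recruit T cells, varied widely at both ages, with 6.20, 7.86 and 8.93 against 5.07, 6.21 and 7.21. The ranges overlapped, and it fell by 1.72 ± 0.40 (3.3-fold, adjusted p = 0.0111), with -1.65 on the shared day (adjusted p = 0.0809). IFIH1, which senses double-stranded viral RNA, fell by 0.78 ± 0.17 (adjusted p = 0.00763) at its brightest probe, and its other probes gave 0.44 and -0.48. Its brightest probe was at -0.64 on the shared day (adjusted p = 0.127). DTX3L fell by 0.79 (adjusted p = 0.0171; -0.74 with adjusted p = 0.142 on the shared day), and IRF1 fell by 0.47 (adjusted p = 0.0216, 0.0559 without 30-week female 1, and -0.46 with adjusted p = 0.123 on the shared day). DDX58, the RNA sensor RIG-I, fell by 1.05 (adjusted p = 0.0329, up to 0.0668 without 30-week female 2 and lost without 6 of the 15 arrays), and was at -1.19 on the shared day (adjusted p = 0.127). Its probe was present on all arrays of 20 weeks and on 5 of 30 weeks, so that some signals were under background. It passed the filter through the 20-week arrays alone, which in part sets its fall and its place among the falls of the list.

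**Figure D3:**
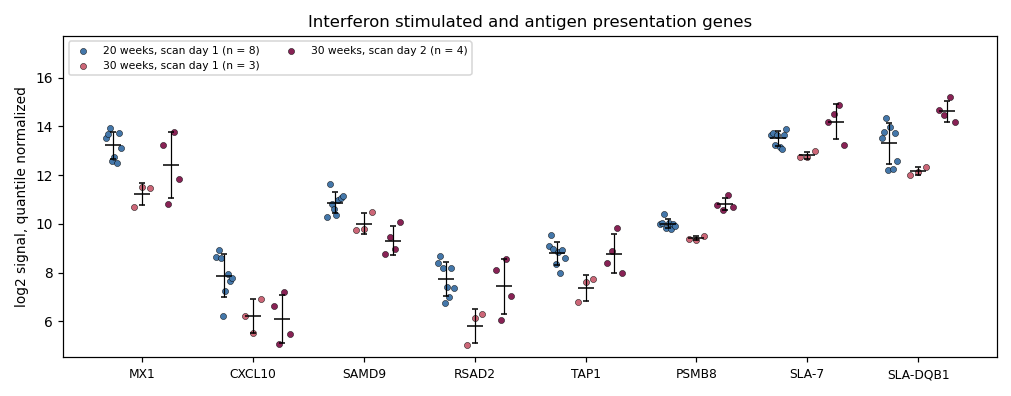
Log2 normalized signal of 8 interferon-stimulated and antigen-presentation genes on each of the 15 arrays, by age and scan day; black marks are mean ± SD. On the shared scan day MX1, RSAD2, TAP1 and SLA-7 have lower means at 30 weeks (11.22, 5.81, 7.38 and 12.82) than at 20 weeks (13.23, 7.75, 8.79 and 13.51), and on the second scan day their means are higher than on the first.

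Antigen-presentation genes, which load peptides onto the MHC for T cells, split by scan day. Of 9 tested genes of SLA class I presentation (SLA is the pig MHC), 0 were called over 15 arrays (median -0.03), 5 fell on the shared day (median -0.56), and 7 were higher on the second than on the first scan day of the 30-week arrays (median 0.75). The shares of all tested probes called in the same directions were 17.3% in either direction over 15 arrays, 0.941% lower on the shared day and 16.7% higher between the scan days. TAP1, which carries peptides into the endoplasmic reticulum, was at 7.98, 8.88 and 9.54 at 20 weeks and had a mean of 7.38 at 30 weeks on the first day and of 8.78 on the second. It was lower by 1.41 ± 0.29 on the shared day (adjusted p = 0.0257), and over 15 arrays the difference was -0.61 (adjusted p = 0.245). PSMB8 and PSMB9, catalytic subunits of the immunoproteasome, fell by 0.58 ± 0.12 (adjusted p = 0.0265) and 0.48 (adjusted p = 0.049) on the shared day, the proteasome activator subunit PSME2 by 0.56 (adjusted p = 0.0359) and the class I gene SLA-7 by 0.69 ± 0.18 (adjusted p = 0.0488). Over 15 arrays PSMB8 and SLA-7 had values of the opposite sign, 0.21 (adjusted p = 0.589) and 0.09 (adjusted p = 0.859), and all 5 calls of the shared day were lost without 30-week male 2. Of 5 tested class II genes, 0 were called between the ages in either comparison and 5 of 5 were higher on the second scan day (medians of 0.27 over 15 arrays, -0.26 on the shared day and 1.03 between the days). SLA-DQB1, a chain of the class II molecule SLA-DQ, was 2.46 higher on the second than on the first day of the 30-week arrays (adjusted p = 0.0016).

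Toll-like receptors and their pathway gave 0 calls among 13 tested genes over 15 arrays (median 0.24) and 1 on the shared day (median -0.08). Of all tested probes 17.3% and 3.21% were called in the same order. The gene called on the shared day was NFKBIA, the inhibitor that holds NF-kappa-B in the cytoplasm. It fell by 0.67 (adjusted p = 0.0353, and 0.173 without 30-week male 2) and was at 0.25 over 15 arrays. Among cytokines and chemokines, 3 of 14 tested genes rose and 0 fell (median 0.20). For these and the receptors below, the shares of all tested probes were 6.57% higher and 10.7% lower over 15 arrays. CXCL16, a chemokine and scavenger receptor of monocytes and macrophages, was at 9.07, 9.37 and 9.66 at 20 weeks and at 9.71, 10.34 and 10.70 at 30 weeks. No 30-week array was below a 20-week array, and it rose by 0.87 ± 0.15 (adjusted p = 0.00288), with 0.51 on the shared day (adjusted p = 0.0684). CCL4, a close relative of CCL3L1, rose by 0.92 (adjusted p = 0.0371, up to 0.0918 without 30-week female 1 and lost without 9 of the 15 arrays), and was at 0.30 on the shared day (adjusted p = 0.57). Among 14 receptors of cytokines and chemokines, IL2RG, the gamma chain shared by the receptors of several interleukins, was the 1 called gene. It rose by 1.28 ± 0.38 (adjusted p = 0.03, up to 0.0742 without 30-week female 1 and lost without 7 of the 15 arrays), with means of 4.97 at 20 weeks, 5.14 at 30 weeks on the shared day (adjusted p = 0.746) and 7.08 on the second day. Of 5 interferons and interferon receptors tested, IFNAR1, a chain of the type I interferon receptor, was at 7.39, 7.77 and 8.08 against 7.33, 8.63 and 9.06 and rose by 0.67 ± 0.21 (adjusted p = 0.0416), a call lost without 11 of the 15 arrays (adjusted p up to 0.0898, without 30-week female 1). IFNAR1 was at 0.12 on the shared day (adjusted p = 0.756).

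Transcripts of plasma proteins, which the liver secretes, gave the largest falls over 15 arrays among genes known by a gene name. Their list was written after some of them had been seen among the largest changes. Of 22 tested genes, 10 fell and 1 rose over 15 arrays, where 10.7% of all tested probes fell and 6.57% rose. The median of the list was -1.05 against -0.01 over all tested probes. The probes of ALB, AFP, GC, SERPINA1, TTR, APOA1, ITIH1 and CYP2C49, all among the falls, passed the filter through the 20-week arrays alone. The count of falls and the median are therefore in part set by the filter. On the shared day 1 fell, CFB, and 2 rose (median -0.37), where 0.941% of all tested probes fell and 2.27% rose. Between the scan days of the 30-week arrays 11 were lower and 2 higher on the second day (median -1.58). Of all tested probes 14% were lower and 16.7% higher there. The summed signal of the list was 2859 to 8627 at 20 weeks, 5946 to 12389 at 30 weeks on the shared day and 2452 to 9990 on the second day, so that as a sum the sets of arrays overlapped.

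AFP encodes alpha-fetoprotein, the main plasma protein of the fetus, and APOA1 the main protein of high-density lipoprotein. Each has a probe that was lower on both scan days, and these probes are printed because the other probes of the same genes behaved differently.
AFP probe, 5′ to 3′: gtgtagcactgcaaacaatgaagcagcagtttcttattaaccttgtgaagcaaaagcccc
APOA1 probe, 5′ to 3′: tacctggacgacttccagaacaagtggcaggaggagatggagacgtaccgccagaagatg
The AFP probe was at 4.12, 4.99 and 5.93 (lowest, median and highest log2 signal) at 20 weeks, present on 8 of 8 arrays, and at 1.44, 1.46 and 3.34 at 30 weeks, where it was not well above background on any of the 7 arrays. The ages did not overlap, and against the lowest signal above background the fall was at least 2.65-fold (adjusted p = 0.000187 over 15 arrays, 0.0083 on the shared day and 0.0305 with the slide as a random block). The other probe named AFP was at 4.92 to 7.05 at 20 weeks, had a mean of 5.49 on the shared day at 30 weeks, where it was present on 3 of 3 arrays, and was present on 0 of 4 arrays of the second day. Its difference was -0.44 ± 0.36 on the shared day (adjusted p = 0.511). Over 15 arrays it was lower by 2.75 (adjusted p = 0.0201, and 0.0545 without 30-week female 1), a value that includes signals under background. The APOA1 probe had means of 5.72 at 20 weeks (present on 8 of 8 arrays), 3.65 at 30 weeks on the shared day (1 of 3) and 2.65 on the second day (0 of 4). It fell by 2.64 over 15 arrays (adjusted p = 0.000936) and by 2.07 on the shared day (adjusted p = 0.00316). These values include signals under background on 6 of the 7 arrays of 30 weeks, and on the second day, where all were, the fall from 20 weeks was at least 4.77-fold. The brightest APOA1 probe was at 8.54, 9.40 and 10.19 against 2.77, 4.06 and 9.08, with a difference of -0.73 on the shared day (adjusted p = 0.154). Both printed probes stayed called on the shared day without any single array. Both passed the filter through the 20-week arrays alone, which in part sets the gap between the ages and its p-values.

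For several other plasma proteins the fall over 15 arrays was large on the second scan day and was not called on the shared day. Of the 22 tested genes of the list, 11 were not called over 15 arrays. Albumin (ALB), the most abundant plasma protein, was at 4.97 to 7.03 at 20 weeks, had a mean of 4.90 at 30 weeks on the shared day (present on 3 of 3 arrays) and was not well above background on the 4 arrays of the second day. There it was at least 5.24-fold lower than at 20 weeks, while on the shared day its difference was -0.96 (adjusted p = 0.127). The same pattern held for the vitamin D carrier GC (at least 6.84-fold lower on the second day, and -1.02 with adjusted p = 0.0815 on the shared day), for the protease inhibitor SERPINA1 (at least 17.4-fold, and -0.47) and for transthyretin, TTR, a carrier of thyroid hormone (at least 4.83-fold, and -0.36). Their limma falls over 15 arrays had adjusted p of 0.00879, 0.00814, 0.0197 and 0.0216, and those of SERPINA1 and TTR were not called without 30-week female 1 (0.0533 and 0.0577). The probes of ALB, GC, SERPINA1 and TTR also passed the filter through the 20-week arrays alone. At 12 weeks of age, ALB, AFP, GC, TTR and SERPINA1 were present on 0 of 8 arrays at these probes.

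Not all genes of the list went that way. RBP4, the retinol carrier, was at 7.42, 8.38 and 9.22 at 20 weeks and at 6.33, 7.40 and 10.81 at 30 weeks. On the shared day it rose by 1.72 ± 0.36 (adjusted p = 0.0268, and 0.105 without 30-week male 2), over 15 arrays the difference was 0.01, and on the second day it was 2.99 lower than on the first, so that the 30-week arrays lay on either side of the 20-week ones. APOC3, an inhibitor of lipoprotein lipase, rose by 1.67 ± 0.32 on the shared day (adjusted p = 0.0225, and 0.0936 without 30-week male 2). Outside the list, IGF1, the growth factor that mediates much of the action of growth hormone, showed the same split, with 6.74, 7.02 and 7.88 at 20 weeks, 5.46, 7.35 and 8.89 at 30 weeks, and a rise of 1.21 ± 0.25 on the shared day (adjusted p = 0.0265, and 0.109 without 30-week male 2). Its binding protein IGFBP2 fell by 0.67 ± 0.14 on that day (adjusted p = 0.0269, and 0.136 without the same array). IGFBP1, another binding protein of IGF1, was the 1 gene of the list that rose over 15 arrays, by 0.91 ± 0.16 (adjusted p = 0.00254), with 0.61 on the shared day (adjusted p = 0.0741).

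**Figure D4:**
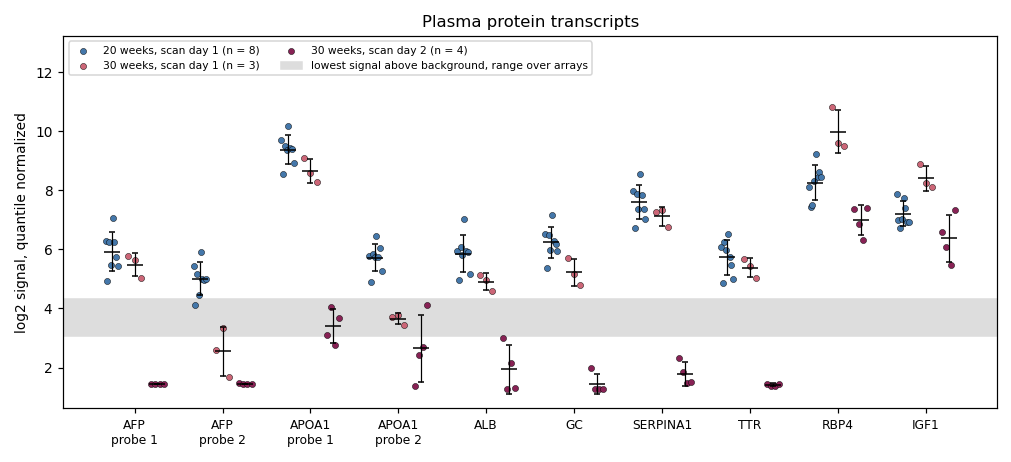
Log2 normalized signal of plasma-protein transcripts on each of the 15 arrays, by age and scan day; black marks are mean ± SD and the grey band is the range of the lowest signal above background. Probe 2 of AFP, the printed one, lies at 3.34 or less on all 30-week arrays, ALB, GC, SERPINA1 and TTR are under background only on the second scan day, and RBP4 and IGF1 are higher on the shared day than on the second (means of 9.97 against 6.99 and of 8.41 against 6.37).

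Calls of blood cell markers, here and in the next paragraph, stand against 10.7% of all tested probes lower and 6.57% higher over 15 arrays. Of the genes with a probe on the array, 11 of 12 T cell, 8 of 13 monocyte, 7 of 7 neutrophil and 8 of 9 platelet genes were expressed and tested. Among 11 tested T cell genes, 2 fell and 0 rose (median 0.12, and -0.34 on the shared day). Both encode chains of the CD3 complex, which passes on the signal of the T cell receptor. CD3G was at 10.58, 11.23 and 11.57 at 20 weeks and at 9.18, 10.34 and 10.64 at 30 weeks. The groups overlapped only at their edges, and it fell by 0.99 ± 0.21 (adjusted p = 0.00716), with -0.64 on the shared day (adjusted p = 0.0827). CD3D fell by 0.48 ± 0.13 (adjusted p = 0.0177), with -0.39 on the shared day (adjusted p = 0.0876), while CD3E, of the same complex, was at 0.44 and did not pass the test. Of 8 platelet genes 3 rose and 0 fell. Over 15 arrays 8 of 8 had positive values, with PPBP at 0.002 (adjusted p = 0.998), and on the shared day 7 of 8 did. PPBP was 1.66 lower on the second than on the first scan day of the 30-week arrays. The median of the 8 genes was 0.48, and 0.50 on the shared day, where 0 were called and 2.27% of all tested probes were higher. The rises were those of VWF, which tethers platelets to the vessel wall (0.50, adjusted p = 0.0207, and 0.0507 without 30-week female 1), of the adhesion molecule SELP (0.58, adjusted p = 0.0251, up to 0.0606 without that array and lost without 4 of the 15) and of the integrin chain ITGB3 (0.65, adjusted p = 0.0443, up to 0.0927 and lost without 11 of the 15). The 3 were at 0.47, 0.75 and 0.53 on the shared day (adjusted p = 0.171, 0.0685 and 0.33). The summed signal of the platelet list was 11034 to 20811 at 20 weeks, 19680 to 30712 at 30 weeks on the shared day and 20819 to 32535 on the second.

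In the other cell types, GNLY, the granule protein granulysin, was the 1 called gene of 4 of NK and cytotoxic cells, with a rise of 0.51 ± 0.14 (adjusted p = 0.0229) that was lost without 30-week female 1 (0.0553) and under scaling to the 75th percentile (0.162), and with 0.24 on the shared day (adjusted p = 0.384). Over 15 arrays 0 of 3 B cell, 0 of 1 plasma cell, 0 of 8 monocyte, 0 of 7 neutrophil, 0 of 5 eosinophil and basophil and 0 of 2 erythroid genes were called. Of all tested probes 17.3% were called in either direction. Neutrophil genes had a median of 0.31 over 15 arrays and -0.12 on the shared day. The erythroid gene HBE1, an embryonic globin, was 1.08 lower on the second than on the first scan day of the 30-week arrays. Few markers of B cells, plasma cells and red cells had a probe on this array. The study also counted blood cells of these pigs. Those counts are not used here, and their part in the results was not tested.

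Transcripts of the ribosome and of the respiratory chain were called at shares that are read here against 10.7% of all tested probes lower and 6.57% higher. Of 29 ribosomal protein genes 6 fell and 1 rose (median -0.14), with 0 called on the shared day (median -0.27). RPL36AL, of the large subunit, was at 13.04, 13.44 and 14.15 at 20 weeks and at 11.09, 12.44 and 12.76 at 30 weeks. The groups did not overlap, with a fall of 1.51 ± 0.28 (adjusted p = 0.00437) and a difference of -0.96 on the shared day (adjusted p = 0.0568). RPL22, of the same subunit, fell by 1.45 (adjusted p = 0.0229), with -0.54 on the shared day (adjusted p = 0.195). Of 22 genes of oxidative phosphorylation 5 fell and 2 rose over 15 arrays (median -0.17). COX6C, a subunit of cytochrome c oxidase, fell by 1.46 ± 0.39 (adjusted p = 0.0192) with means of 12.43 at 20 weeks, 11.93 at 30 weeks on the shared day and 10.25 on the second day (adjusted p = 0.175 on the shared day), and ATP5S, a factor of ATP synthase, rose by 0.84 ± 0.19 (adjusted p = 0.00955) with means of 14.32, 14.62 and 15.56 (adjusted p = 0.231 on the shared day). On the shared day COX5A, another subunit of cytochrome c oxidase, rose by 0.43 (adjusted p = 0.0321) and ATP5G2 fell by 0.65 (adjusted p = 0.0265), both lost without 30-week male 2 (0.165 and 0.138). COX5A was at -0.10 over 15 arrays.

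The counts of the smaller lists are read against the same shares, 10.7% of all tested probes lower and 6.57% higher over 15 arrays. Of 11 genes of complement and Fc receptors 2 rose and 1, CFB, fell. FCER1G, the signalling chain of several Fc receptors, was at 9.59, 10.03 and 10.48 against 10.34, 11.01 and 12.07 and rose by 1.11 ± 0.24 (adjusted p = 0.00774), with 0.51 on the shared day (adjusted p = 0.103), and the leukocyte integrin chain ITGB2 rose by 0.70 (adjusted p = 0.0254, up to 0.0635 without 30-week female 1 and lost without 4 of the 15 arrays), with 0.19 on the shared day (adjusted p = 0.546). Of 9 apoptosis genes 1 rose and 1 fell. The rise was that of BAX, a pore-forming protein of mitochondria, at 7.02, 7.30 and 7.55 against 7.62, 8.07 and 8.49. No 30-week array reached down to the 20-week range, and the difference was 0.77 ± 0.15 (adjusted p = 0.0043), with 0.50 on the shared day (adjusted p = 0.0955). PCNA, the sliding clamp of DNA replication, was the 1 called gene of 7 of the cell cycle and fell by 0.96 ± 0.23 (adjusted p = 0.0123), with means of 8.91 at 20 weeks, 8.61 at 30 weeks on the shared day (adjusted p = 0.243) and 7.45 on the second. Over 15 arrays 1 of 10 proteasome genes (PSMA4), 1 of 15 heat shock and early response genes (HSPH1) and 1 of 6 glucocorticoid responsive genes (HSD11B1) fell, the calls of PSMA4 and HSPH1 being lost without 4 and 5 of the 15 arrays (adjusted p up to 0.0591 and 0.0676, without 30-week female 1), and none of these lists had a rise over 15 arrays. PSMA4 and HSPH1 were at -0.23 and -0.18 on the shared day (adjusted p = 0.312 and 0.563). None of 1 circadian, 7 antimicrobial peptide, 7 growth and sexual maturation and 7 housekeeping genes was called over 15 arrays.

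**Figure D5:**
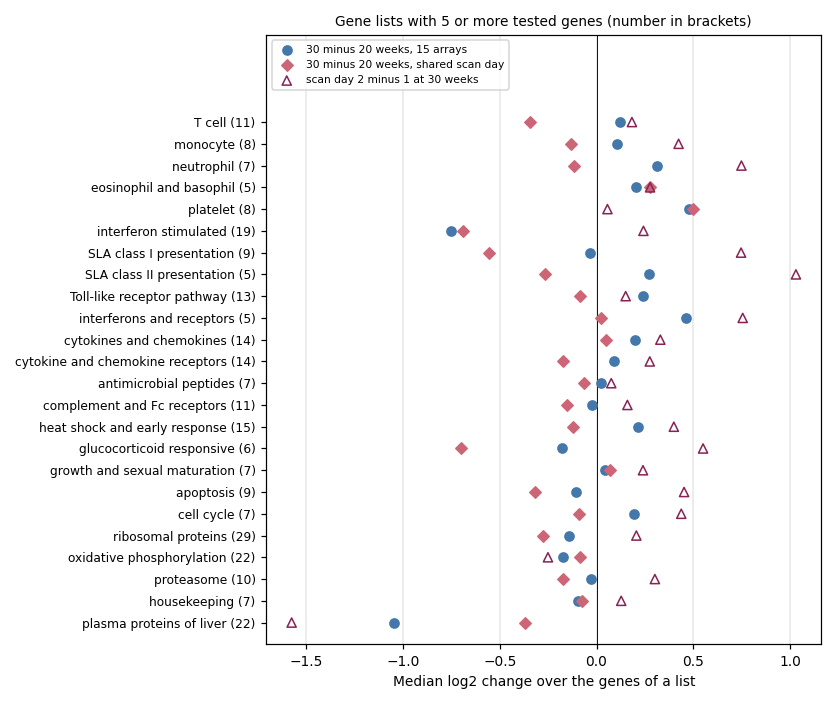
Median log2 difference of each gene list with 5 or more tested genes, for 30 against 20 weeks over 15 arrays (blue circles), on the shared scan day (red diamonds), and for the second against the first scan day of the 30-week arrays (open triangles). The interferon-stimulated genes are lower between the ages in both comparisons (-0.75 and -0.69), while the genes of class I presentation have medians of -0.03 over 15 arrays, -0.56 on the shared day and 0.75 between the scan days, and those of class II 0.27, -0.26 and 1.03.

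Among the largest changes over 15 arrays, several followed the scan day. The largest fall among named or described genes was that of a probe known by its protein entry, Q8MJ76. This probe was present on all arrays of 20 weeks, on 3 of 30 weeks on the shared day and on 0 on the second day. It passed the filter through the 20-week arrays alone. The largest described rise was that of a probe similar to dystonin (DST), a linker of the cytoskeleton, at 9.05, 9.34 and 9.77 against 9.71, 11.39 and 11.74. It rose by 1.50 ± 0.31 (adjusted p = 0.00697), with 0.51 on the shared day (adjusted p = 0.0785) and 1.74 between the scan days. RDX, radixin, which ties actin to the membrane, rose by 1.23 ± 0.34 (adjusted p = 0.021, and 0.0549 without 30-week female 1) with 0.20 on the shared day, and the RNA helicase DDX39B rose by 1.21 ± 0.29 (adjusted p = 0.0129) with 0.32. PLET1, a membrane protein known from placenta and epithelia, was at 5.96, 6.79 and 7.76 against 2.44, 5.26 and 6.30 and fell by 2.18 ± 0.49 (adjusted p = 0.00973), with -1.15 on the shared day (adjusted p = 0.0767). Its probe was present on all arrays of 20 weeks and on 5 of 30 weeks, so that this value includes signals under background. It too passed the filter through the 20-week arrays alone, which in part sets its fall.

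The number of expressed probes, with presence on over 75% of the samples at an age, was 17918 at 20 weeks (96.9% of the tested probes) and 17498 at 30 weeks (94.6%). In all, 570 probes (3.08%) were expressed only at 30 weeks and 990 (5.35%) only at 20 weeks, and these counts were 1199 and 566 without 30-week female 4 and 1066 and 585 without 30-week male 1. The probes present on all arrays of 1 age and on none of the other were 10. Between the scan days, 37 probes were present on all 11 arrays of the first day and on none of the 4 of the second, and 26 the other way round. Of the 990 probes expressed only at 20 weeks, 254 were present on all 3 arrays of 30 weeks of the shared day and 49 on none of them. LECT2, by its description a chemotactic factor of leukocytes made in the liver, was present on 8 of 8 arrays of 20 weeks and on 0 of 7 of 30 weeks, at least 1.66-fold lower (adjusted p = 0.00763 over 15 arrays and 0.175 on the shared day). A probe similar to the iron-sulphur cluster protein GLRX5 was present on 8 and on 1 array of the same groups, with no overlap in signal (adjusted p = 0.00837 over 15 arrays and 0.109 on the shared day), and gets no fold since most 30-week signals were under background. EPAS1, the hypoxia-inducible factor HIF-2 alpha, went the other way, present on 2 of 8 arrays at 20 weeks and on 6 of 7 at 30 weeks. It was at 2.66, 3.38 and 3.75 against 3.74, 4.23 and 4.78 and rose by 0.91 ± 0.21 (adjusted p = 0.0104, 0.0797 after a model-based background correction, and 0.158 on the shared day, where it was at 0.72). LECT2, GLRX5 and EPAS1 were picked for their difference in presence on these same arrays, so that their p-values are partly set by that choice.

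The change from 20 to 30 weeks was also compared between the sexes and the spread of the animals between the ages. For the sexes limma called 0 of 18488 probes (0%), and 402 had an unadjusted p under 0.05. The smallest p among named genes was that of IL18, a cytokine that induces interferon gamma, with a difference of 0.16 in males and -1.55 in females (adjusted p = 0.994). The sexes were split unevenly over the scan days at 30 weeks, since male 1 and females 1, 2 and 3 make up the second day. IL18 had means of 8.58 at 20 weeks, 8.52 at 30 weeks on the shared day and 7.20 on the second day. Sex and scan day were not separated in this value. The spread, as the absolute deviation from the median of each age, gave 0 calls by limma (0%), while 3022 probes had an unadjusted p under 0.05, of which 2953 showed a larger spread at 30 weeks. Taken within age and scan day, the number at an unadjusted p under 0.05 was 851. Leaving out 30-week male 1 gave 1083 called probes for spread, leaving out 30-week female 2 gave 373 and leaving out 30-week female 3 gave 8. ACP5, an acid phosphatase of macrophages that carries iron, had an SD of 0.10 at 20 weeks and 0.63 at 30 weeks (adjusted p = 0.219), and of 0.12 and 0.28 within the scan days of the 30-week arrays. A count of 0 here does not show that the spreads were equal.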

How the data were processed

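For each of the 15 samples the authors deposited spot intensities on a linear scale, read with Agilent Feature Extraction (9.5.3.1 in the submitters' processing notes, 10.1.1.1 in the file headers), after subtraction of background and detrending within the array, with flags per spot. The authors also deposited log2 values, quantile normalized over all arrays, which served as an alternative. From the processed intensity, outlier spots (1 to 13 per array) were left out, the spots of a probe were averaged, and log2 values were quantile normalized over the 15 arrays. No spot was saturated. Probes were tested with limma 3.58.1 (trended and robust eBayes; statmod 1.5.0, R 4.3.3), age being the only term, and adjusted by Benjamini-Hochberg over all 18488 tested probes, which had to be expressed at either age. The fit was tested first on simulated data with independent noise on each array and without slides, scan days or repeated animals. That simulation cannot show how the fit acts under such grouping. Other steps used Python 3.11.15 with numpy 2.4.6, pandas 2.3.3 and matplotlib 3.10.9. Where a probe was not well above background on any array of a group, the fold is a bound against the lowest signal well above background. On arrays, depth is signal over background.

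A gene name was given for 3170 probes in the array files (2088 names, updated through reference tables where they matched), and 3540 more were called after the protein entry in their description. The brightest probe stood for a gene. Genes were named as the largest called changes, the called members of the gene lists, the largest differences in presence, sex or spread, and the calls shared by both comparisons, and the text gives a part of them; some genes are not reported here. The members and the lists were chosen with earlier results of these data known. A list is described by its counts and its median, with no test of its own. The alternatives were other scalings, background corrections, filters, tests, blocks and presence calls, and leaving out each array.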

Additional observations from a re-analysis of the deposited data

Results flagged for a closer look

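A total of 164 groups of values, each of 1 age, was searched for a single value far from the others. They held the genes named above, the first principal component, the mean correlation with the 20-week arrays and the number of present probes. In all, 2 values were found, where chance alone gives about 1 in 20. IFIH1 was at 8.93 in 30-week male 3, with the nearest other 30-week array at 8.34. PSMB8 was at 10.39 in 20-week female 3, with the nearest other 20-week array at 10.05.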

How the results depend on the processing

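Over 15 arrays 3200 probes were called, and refitting gave a count of 391 with scan day as a fixed block, 399 with it as a random block, 594 on the shared scan day, 6 with slide as a random block, 35 with all 31 arrays in 1 fit, 4888 with array weights, 2012 without the filter on dim probes and 607 at 2-fold or more. Other scalings, background correction, the authors' log2 values, sex as a covariate, kept outlier spots, plain eBayes, a filter on presence on all 15 arrays and the methods' t-test gave 2852 to 3220 (the t-test 2852 after Benjamini-Hochberg, 6023 at an unadjusted p under 0.05). With the labels' replicate number as a block it was 2771; CCL4 (adjusted p = 0.0591) and GNLY (0.0599) lost their calls and MX2 (0.0434) gained one. The numbers are not stated to mark animals, and 5 of 7 pairs correlated best with their own number (r from -0.03 to 0.57). Leaving out 1 array gave 1719 to 5392 calls over 15 arrays, 43 to 1378 on the shared day, 3287 to 7438 between scan days, 0 for sex, 0 to 1083 for spread, 446 to 1199 probes gained and 566 to 1178 lost. Probes expressed only at 30 weeks numbered 1236 with the positive and significant flag alone, 326 with presence on all arrays and 1243 with presence on more than 50%; those only at 20 weeks numbered 1620 and 532 under the last 2 rules. The shared-day alternatives, chosen after seeing the data, gave 396 to 756 calls. Of 58 named genes called over 15 arrays, 40 stayed called whichever array was left out. With slide as a random block 57 of the 58 lost the call, and with all 31 arrays in 1 fit 55 did. With scan day as a fixed block 46 lost it, and on the shared day 40. COX5A (0.43) and PSMB8 (-0.58) turned direction with scan day as a fixed block and on the shared day, and were called in both. NFKBIA (-0.67) and SLA-7 (-0.69) turned in both as well and were called on the shared day only. ACP5 (-0.34), CD3E (-0.15) and SLA-DQB1 (-1.14) also turned in both and were called in neither. The cause was not tested. Transcripts under background have no order.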
